A study of Mus musculus with 9 samples.

Results

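The miR-15/16 family, with its members miR-195 and miR-497, was described in mouse liver, as 5 mature miRNAs whose 5p arms carry the same seed: mmu-miR-15a-5p, mmu-miR-15b-5p, mmu-miR-16-5p, mmu-miR-195a-5p and mmu-miR-497a-5p. The members were taken by name, and they are 5 of the 1140 miRNA rows counted by small RNA sequencing. All samples came from livers of male C57BL/6 mice that were 8 weeks old at the start. The control group (n = 3) received normal saline intraperitoneally for 8 weeks, and mice given thioacetamide (TAA group, n = 3), a toxin that injures hepatocytes and leads to fibrosis, were injected over the same 8 weeks. Livers of both groups were taken days after the last injection, so that recent exposure to the toxin and fibrosis cannot be told apart. The recovery group (n = 3) received the same TAA course and was then left untreated for 8 more weeks, so that recovery and elapsed time cannot be told apart. Replicates are separate liver samples by their titles, and the p-values measure the spread between these samples.

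A miRNA guides an Argonaute protein to messenger RNAs that pair with its seed, and lowers their translation and stability. miRNAs with the same seed can share targets even when they are transcribed from different chromosomes. Members of this family are known for repressing genes of cell cycle entry, such as D-type and E-type cyclins, and the survival gene Bcl2, and miR-195 for its role in the withdrawal of heart muscle cells from the cell cycle after birth.

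The mature sequences show what the members share and where they part. They are given 5′ to 3′ from the RefSeq annotation of GRCm38.p6, with the seed (bases 2 to 8) in capitals.
mmu-miR-15a-5p: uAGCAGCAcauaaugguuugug
mmu-miR-15b-5p: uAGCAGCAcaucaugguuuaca
mmu-miR-16-5p: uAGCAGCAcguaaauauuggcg
mmu-miR-195a-5p: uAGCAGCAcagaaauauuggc
mmu-miR-497a-5p: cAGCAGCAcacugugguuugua

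Beyond the seed the members fall into different pairs than their genes do. mmu-miR-16-5p and mmu-miR-195a-5p, which lie on different chromosomes, were identical at 19 of the 21 positions compared, the differences being G10A and U11G (the base of mmu-miR-16-5p first, positions counted from 1 at the 5′ end). mmu-miR-15a-5p and mmu-miR-15b-5p were identical at 18 of 22 positions. mmu-miR-16-5p and mmu-miR-497a-5p were the most distant pair, with 11 of 22 positions identical. How many mismatches the mapping of the reads allowed is not given in the sources used here, and whether reads of mmu-miR-16-5p entered the count of mmu-miR-195a-5p was not tested.

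The members come from 3 pairs of hairpin genes (GENCODE annotation of GRCm38, the build the authors call mm10). Mir15a (chr14:61632027-61632110) lies in an intron and Mir16-1 (chr14:61631880-61631972) overlaps an annotated exon of Dleu2, a long non-coding RNA gene, on the minus strand with 54 bases between the hairpins. Mir15b (chr3:69009772-69009835) and Mir16-2 (chr3:69009902-69009996) lie in introns of Smc4, which encodes a condensin subunit that compacts chromosomes in mitosis, on the plus strand with 66 bases between them. Mir497 (chr11:70234717-70234800) and Mir195a (chr11:70235042-70235135) lie on the plus strand with 241 bases between them, and no host gene was annotated around them. Both miR-16 hairpins give the same mature mmu-miR-16-5p, so that its count is the sum over the loci on chromosomes 14 and 3. Their 3p arms differ and can be counted apart, which is why they are shown here with the 10 of 22 positions that differ in capitals.
mmu-miR-16-1-3p: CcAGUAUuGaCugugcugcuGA
mmu-miR-16-2-3p: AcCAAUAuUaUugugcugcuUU

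The sum of all counts in a sample ranged from 9071847 to 12983378. The liver-specific mmu-miR-122-5p, which marks hepatocytes, was abundant in every sample. Its row differed from the row of mmu-miR-122b-3p by 0.0114% of their mean over the 9 samples. These rows are therefore not separate measures, and both enter the sum of all counts. Levels are given as counts per 1000000 counts (CPM) scaled by TMM factors, which take most miRNAs as unchanged from one library to the next, and as the deposited TPM, which is the count per 1000000 counts of the library. The choice matters in this study. Moving from TMM scaling to library totals raised the median log2 fold change over the miRNAs tested by 1.12 in TAA vs control and by 0.19 in recovery vs control, and moved it by -0.86 in recovery vs TAA. In bulk tissue, fewer cells of a type and less RNA per cell cannot be told apart.

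In control liver mmu-miR-16-5p was by far the most abundant member. Its TMM-scaled CPM was 549.9, 589.6 and 623.9 in control replicates 1 to 3, and the other members lay between 19.9 and 37.0 CPM in these samples. The members are 21 or 22 bases long, so that their counts can be compared without a term for length. mmu-miR-195a-5p, at 32.8 ± 3.65 CPM (SD, n = 3), came next, and its range lay above that of mmu-miR-15a-5p (23.3 ± 2.61), whereas the ranges of mmu-miR-15a-5p, mmu-miR-497a-5p (22.9 ± 1.20) and mmu-miR-15b-5p (22.4 ± 2.13) overlapped. In the TAA group mmu-miR-16-5p (425 ± 54.0) was still first. The ranges of mmu-miR-195a-5p (61.2 ± 16.5), mmu-miR-497a-5p (50.6 ± 8.15) and mmu-miR-15b-5p (40.3 ± 8.80) each overlapped with the next, and mmu-miR-15a-5p (13.8 ± 1.23) lay below them all. In the recovery group the order was mmu-miR-16-5p, mmu-miR-195a-5p, mmu-miR-497a-5p and then mmu-miR-15a-5p and mmu-miR-15b-5p, and only the last pair overlapped.

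**Figure D1:**
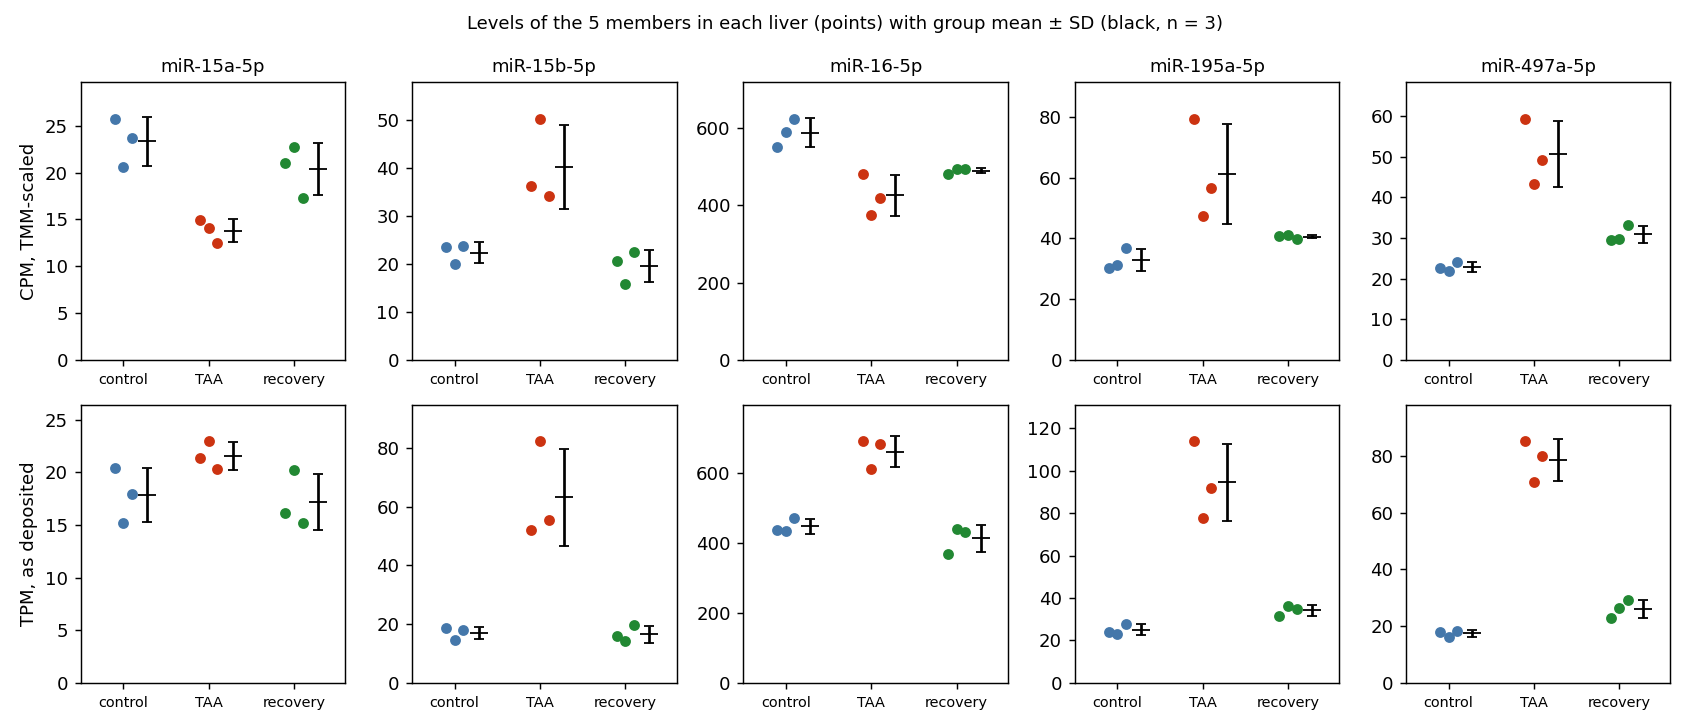
Level of each member in each liver, as TMM-scaled CPM (upper row) and as deposited TPM (lower row), with the mean ± SD (n = 3) of each group in black. On the CPM scale mmu-miR-15a-5p and mmu-miR-16-5p were lower in every TAA sample than in any control sample, whereas in TPM mmu-miR-16-5p was higher in TAA (611 to 690 TPM) than in control (435 to 471 TPM), and the other 3 members lay above control in TAA on both scales.

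TAA vs control asks how the family differed between TAA-treated and saline-treated livers. All 5 members passed the test with TMM scaling and they went in both directions. mmu-miR-15b-5p, mmu-miR-195a-5p and mmu-miR-497a-5p were higher in TAA, by 1.70-fold, 1.74-fold and 2.08-fold. mmu-miR-15a-5p and mmu-miR-16-5p were 1.80-fold and 1.47-fold lower on this scale, whereas on library totals mmu-miR-16-5p was higher and mmu-miR-15a-5p did not pass the test. Thus 3 members were called higher, where 31.9% of the 420 miRNAs tested were called higher, and 2 members lower, where 26.4% were called lower. One DEM (differentially expressed miRNA, FDR below 0.05 and fold change of at least 2) was among them, mmu-miR-497a-5p, beside 41.7% DEMs over all miRNAs tested. The median log2 fold change was 0.77 over the 5 members and 0.11 over all miRNAs tested. On library totals 4 members were called higher and 0 lower, where 71.9% of all miRNAs tested were called higher with a median log2 fold change of 1.23, and 3 members were DEMs, beside 58.3% of all. With limma on the deposited TPM, 71.4% of all were called higher and 50.7% were DEMs.

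mmu-miR-497a-5p, from the chromosome 11 pair, showed the clearest rise. Its TMM-scaled CPM was 22.6, 21.9 and 24.2 in control and 59.4, 43.3 and 49.3 in TAA replicates 1 to 3. Every TAA sample lay above every control sample, with TAA replicate 1 the highest. The log2 fold change was 1.05 (SE 0.15), with an FDR of 0.00103 by edgeR's quasi-likelihood test. Without TAA replicate 1 its fold change fell under 2, at 0.98 on the log2 scale, and 0 members were DEMs, although it remained below the FDR threshold.

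mmu-miR-195a-5p, its neighbour, stood at 30.1, 31.4 and 37.0 CPM in control and at 79.4, 47.4 and 56.6 CPM in TAA replicates 1 to 3. The groups did not overlap, and again TAA replicate 1 was highest. The log2 fold change was 0.80 (SE 0.19, FDR = 0.00926 by edgeR).

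mmu-miR-15b-5p, from the Smc4 intron, measured 23.5, 19.9 and 23.7 CPM in control and 36.3, 50.3 and 34.2 CPM in TAA replicates 1 to 3. The groups did not overlap, and here TAA replicate 2 was the highest, so that the spread within TAA was not the same sample for every member. Its log2 fold change was 0.77 (SE 0.21, FDR = 0.0180 by edgeR), and this call was lost without control replicate 2 (FDR = 0.0717 by edgeR) or control replicate 3 (FDR = 0.0591).

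mmu-miR-15a-5p, from the Dleu2 intron, was at 25.8, 20.6 and 23.7 CPM in control and at 14.9, 14.0 and 12.5 CPM in TAA replicates 1 to 3. All TAA samples lay below all control samples on this scale. The log2 fold change was -0.85 (SE 0.17, FDR = 0.00462 by edgeR). In deposited TPM the same samples gave 20.4, 15.2 and 17.9 for control and 21.4, 22.9 and 20.3 for TAA. Here the groups overlapped, and the log2 fold change on library totals was 0.27 (FDR = 0.205 by edgeR).

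mmu-miR-16-5p gave 481.8, 374.2 and 419.4 CPM in TAA replicates 1 to 3, below all 3 control samples. The log2 fold change was -0.56 (SE 0.12, FDR = 0.00621 by edgeR). In deposited TPM it was 436, 435 and 471 in control and 690, 611 and 682 in TAA. The TAA samples were then all above the control samples, and the log2 fold change on library totals was 0.56 (FDR = 0.00360 by edgeR), under the median of 1.23 over all miRNAs tested on that scale. The direction of this member therefore depended on the scaling, whereas the log2 fold changes of mmu-miR-15b-5p, mmu-miR-195a-5p and mmu-miR-497a-5p on library totals were 1.89, 1.92 and 2.17.

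**Figure D2:**
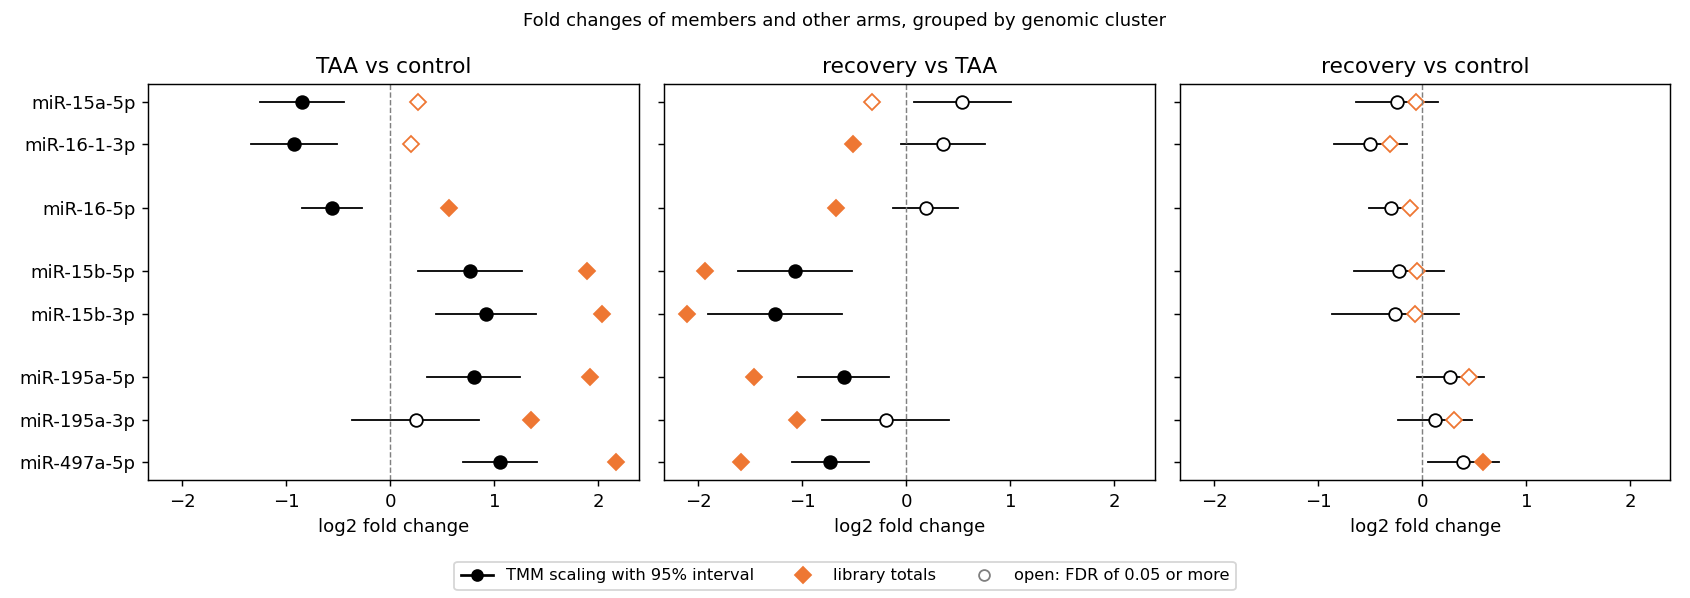
Log2 fold changes of the members and of the other arms tested in all comparisons, grouped by genomic cluster, with the 95% interval for TMM scaling (circles) and the value on library totals (diamonds), where filled symbols had an FDR below 0.05. In TAA vs control the circles of mmu-miR-15a-5p (-0.85) and mmu-miR-16-1-3p (-0.92) lie to the left of 0 and those of mmu-miR-15b-5p (0.77) and mmu-miR-15b-3p (0.92) to the right, while every diamond lies to the right.

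Ratios of 2 members counted in the same library do not depend on the scaling, and they were compared for this reason. The count of mmu-miR-15b-5p over that of mmu-miR-15a-5p was 0.913, 0.968 and 1.0 in control, 2.43, 3.59 and 2.74 in TAA, and 0.980, 0.698 and 1.3 in recovery replicates 1 to 3. These 2 miRNAs, from paralogous loci, were thus counted about equally in control and recovery livers, and in every TAA liver mmu-miR-15b-5p was well ahead. The ratio was 3.0-fold higher in TAA than in control (exact two-sided permutation p = 0.1, adjusted p = 0.208). With 3 samples against 3 the smallest p this test can give is 0.1, so that none of the 27 tests of this kind could pass 0.05.

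Set against mmu-miR-16-5p, the members of the chromosome 11 pair were counted more often in every TAA liver than in any control liver. The count of mmu-miR-497a-5p was 0.0410, 0.0371 and 0.0388 of that of mmu-miR-16-5p in control, and 0.123, 0.116 and 0.118 in TAA. This was 3.05-fold higher in TAA, with little spread within either group. The ratio of mmu-miR-195a-5p to mmu-miR-16-5p was 2.54-fold higher and that of mmu-miR-15b-5p to mmu-miR-16-5p 2.47-fold higher, both with no overlap between the groups (exact permutation p = 0.1 for each of the 3 ratios, adjusted p = 0.208). By contrast, the ratio of mmu-miR-15a-5p to mmu-miR-16-5p overlapped between TAA and control (0.0298 to 0.0375 and 0.0349 to 0.0469), and so did that of mmu-miR-497a-5p to mmu-miR-195a-5p (0.748 to 0.912 and 0.655 to 0.748).

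**Figure D3:**
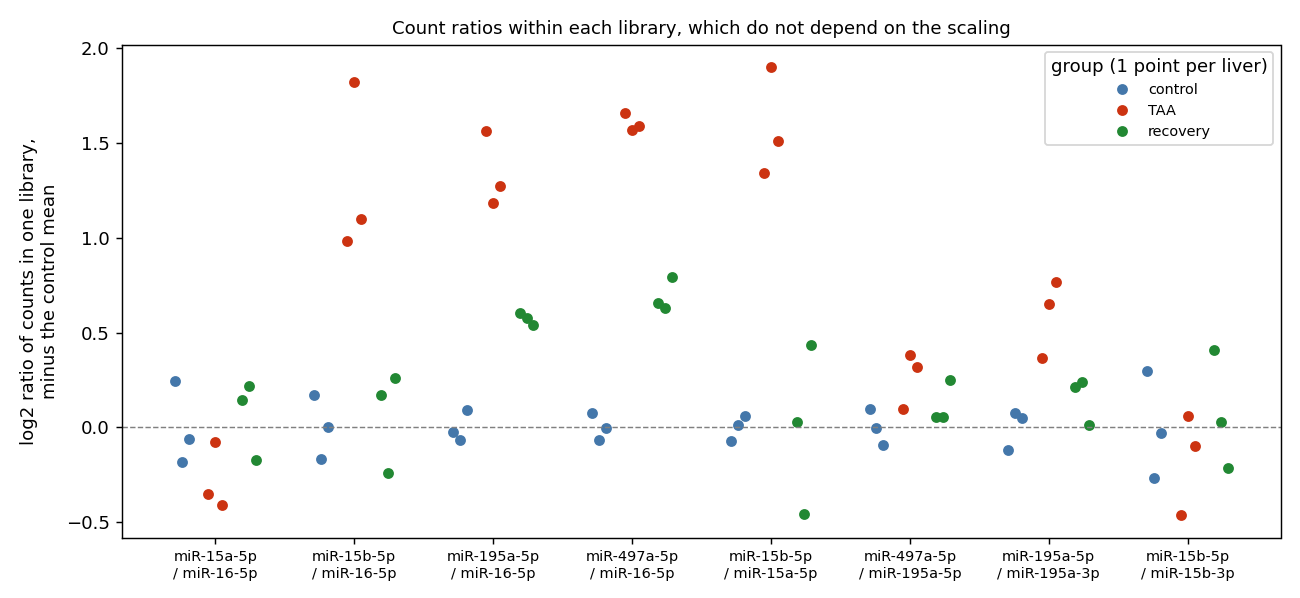
Log2 ratio of the counts of 2 rows in the same library, minus the mean of the 3 control samples, with 1 point per liver. For mmu-miR-195a-5p, mmu-miR-497a-5p and mmu-miR-15b-5p over mmu-miR-16-5p the TAA points lie above all control points, and for mmu-miR-195a-5p and mmu-miR-497a-5p the recovery points lie between the TAA and control points.

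The makeup of the family is given as a description. mmu-miR-16-5p made up 85.3% ± 0.964 of the summed counts of the 5 members in control, 71.9% ± 1.33 in TAA and 81.4% ± 0.378 in recovery (SD, n = 3). The part of mmu-miR-497a-5p was 3.32% ± 0.129, 8.54% ± 0.339 and 5.14% ± 0.306, and that of mmu-miR-195a-5p was 4.76% ± 0.256, 10.2% ± 1.46 and 6.76% ± 0.144. The part of mmu-miR-15b-5p was 3.25% ± 0.348, 6.96% ± 2.23 and 3.27% ± 0.566, and that of mmu-miR-15a-5p was 3.40% ± 0.492, 2.35% ± 0.261 and 3.39% ± 0.475. For the last pair the recovery values were close to those of control, whereas for mmu-miR-497a-5p and mmu-miR-195a-5p every recovery sample lay between the other groups.

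The family as a whole was a small part of each library. Its summed counts were 0.0525% ± 0.00253 of the library in control, 0.0919% ± 0.00498 in TAA and 0.0507% ± 0.00452 in recovery (SD, n = 3). In a single sample this share was known closely, for example 0.0864% in TAA replicate 2 with a 95% Wilson interval of 0.0846% to 0.0884%, which covers counting error only, since reads were not tagged by molecule. The share is relative to a library in which mmu-miR-122-5p fell in TAA, and with the rows of mmu-miR-122-5p and of mmu-miR-122b-3p left out of the total it was 0.0885%, 0.119% and 0.0840%.

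**Figure D4:**
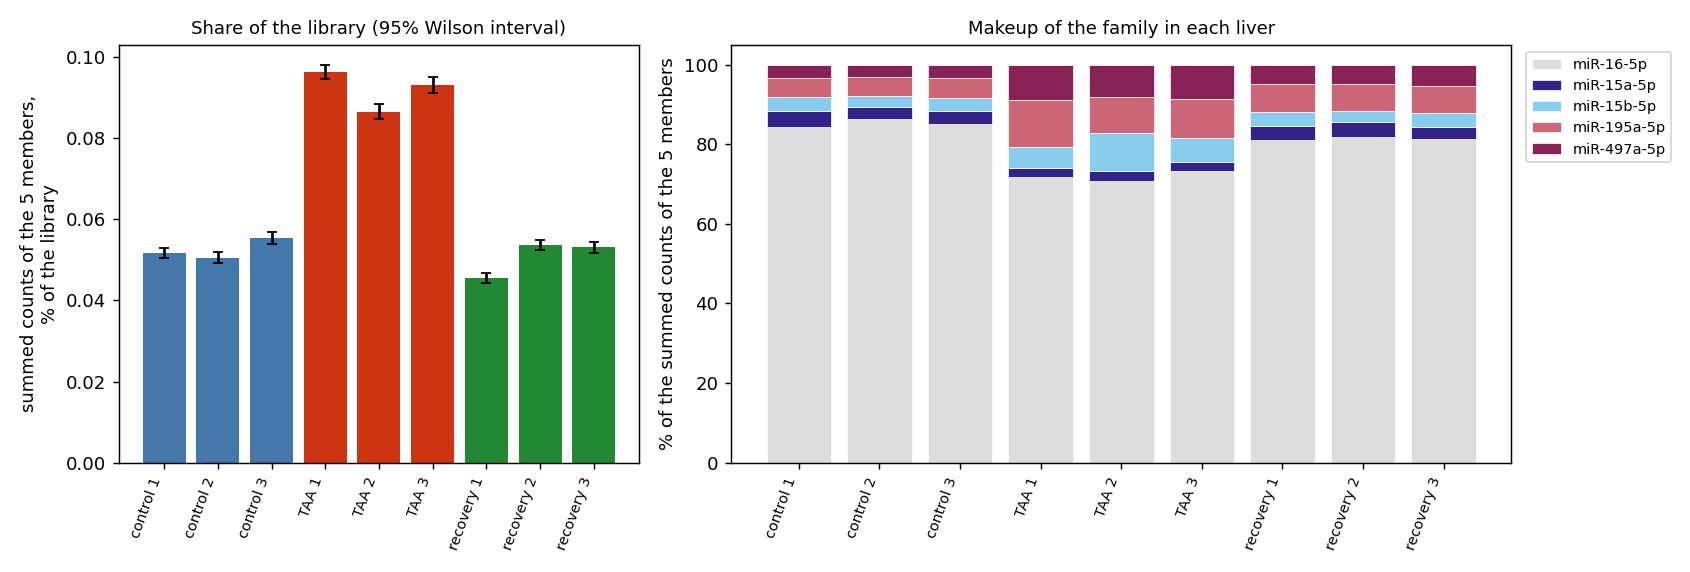
Left, summed counts of the 5 members as a percentage of the library in each liver, with 95% Wilson intervals. Right, percentage of these summed counts held by each member, where mmu-miR-16-5p held 70.7% to 73.3% in the TAA samples and 81.1% or more in every other sample.

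Recovery vs TAA asks what differed after withdrawal of the toxin, and it shares the TAA samples with the comparison above. mmu-miR-15b-5p, mmu-miR-195a-5p and mmu-miR-497a-5p were lower in recovery, by 2.09-fold, 1.52-fold and 1.66-fold. No member was called higher, where 18.4% of the 440 miRNAs tested were called higher, and 3 were called lower, where 20.7% were. mmu-miR-15b-5p was the single DEM, beside 24.8% DEMs over all miRNAs tested. The median log2 fold change was -0.60 over the members and -0.12 over all miRNAs tested. On library totals 4 members were called lower, where 60.0% of all miRNAs tested were, with a median log2 fold change of -0.98, and 3 were DEMs, beside 47.0% of all. With limma on the deposited TPM, 57.5% of all were called lower and 36.1% were DEMs.

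mmu-miR-15b-5p stood at 20.6, 15.9 and 22.4 CPM in recovery replicates 1 to 3, below all TAA samples. The log2 fold change was -1.07 (SE 0.24, FDR = 0.00935 by edgeR). mmu-miR-497a-5p was at 29.6, 29.9 and 33.3 CPM in recovery, also below all TAA samples, with a log2 fold change of -0.73 (SE 0.16, FDR = 0.00935 by edgeR). mmu-miR-195a-5p was at 40.8, 41.1 and 39.9 CPM, the tightest of the groups, with a log2 fold change of -0.60 (SE 0.19, FDR = 0.0369 by edgeR).

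For mmu-miR-15a-5p and mmu-miR-16-5p no call was made by edgeR with TMM scaling in the fit of the 6 samples compared. mmu-miR-15a-5p measured 21.1, 22.8 and 17.3 CPM in recovery, all above TAA, with a log2 fold change of 0.54 (FDR = 0.0655 by edgeR), but it was called higher in edgeR's fit of all 9 samples (0.56, FDR = 0.0260) and by DESeq2 (FDR = 0.0147). In deposited TPM the direction turned, with 16.1, 20.2 and 15.2 in recovery all below TAA, and the log2 fold change on library totals was -0.33 (FDR = 0.197 by edgeR). mmu-miR-16-5p measured 481.7, 494.4 and 492.5 CPM, and recovery replicate 1 overlapped with TAA replicate 1. Its log2 fold change was 0.19 (95% interval -0.13 to 0.50, FDR = 0.312 by edgeR), whereas on library totals it was -0.68 (FDR = 0.00568), where the median over all miRNAs tested was -0.98.

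The calls of this comparison were sensitive to single livers. Without recovery replicate 2, 0 members were called by edgeR, with FDR = 0.0516 for both mmu-miR-15b-5p and mmu-miR-497a-5p, and without recovery replicate 1 only mmu-miR-15b-5p was (FDR = 0.0460). mmu-miR-195a-5p was called in 1 of the 6 fits that each left out a liver, the one without TAA replicate 2, and mmu-miR-15b-5p had a fold change under 2 without TAA replicate 2 or recovery replicate 2. The directions of these 3 members were the same in all 6 fits. Shares called over all miRNAs tested are not given for the fits without a liver.

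Recovery vs control asks whether the family still differed 8 weeks after the last TAA course. None of the 5 members was called by edgeR, where 12.0% of the 391 miRNAs tested were called higher, 2.05% lower and 11.3% as DEMs. DESeq2 also called 0, and its share over all miRNAs tested is not given here. At an unadjusted p under 0.05 edgeR gave 2 members, mmu-miR-16-5p and mmu-miR-497a-5p, where 23.0% of all miRNAs tested were under it. The median log2 fold change was -0.22 over the members and -0.03 over all miRNAs tested.

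How the samples of each member lay is given as a description. The share of all miRNAs tested without overlap between these groups was not computed. mmu-miR-497a-5p was above all control samples in every recovery sample, with a log2 fold change of 0.40 (SE 0.15, 95% interval 0.05 to 0.74, FDR = 0.150 by edgeR), and on library totals its log2 fold change of 0.58 passed the test (FDR = 0.0480), where 14.8% of all miRNAs tested were called higher (14.6% with limma, which also called it). mmu-miR-195a-5p also did not overlap, with a log2 fold change of 0.27 (95% interval -0.05 to 0.59, FDR = 0.328). mmu-miR-16-5p lay below all control samples in CPM, with a log2 fold change of -0.30 (95% interval -0.51 to -0.10, FDR = 0.0576), but overlapped with control in TPM. mmu-miR-15a-5p and mmu-miR-15b-5p overlapped with control, with log2 fold changes of -0.24 (95% interval -0.63 to 0.15) and -0.22 (95% interval -0.65 to 0.21).

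The ratios within a library gave the same order without any scaling. mmu-miR-497a-5p was counted at 0.0615, 0.0604 and 0.0675 of mmu-miR-16-5p in recovery replicates 1 to 3, which was 1.62-fold above control. mmu-miR-195a-5p was counted at 0.0848, 0.0830 and 0.0811 of mmu-miR-16-5p in recovery and at 0.0548, 0.0533 and 0.0593 in control, 1.49-fold apart. In both ratios every recovery liver lay between the control livers and the TAA livers (exact permutation p = 0.1, adjusted p = 0.208). The ratio of mmu-miR-15b-5p to mmu-miR-16-5p overlapped between recovery and control and was 1.05-fold apart (exact permutation p = 0.7, adjusted p = 0.788).

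The other arm of each hairpin was read as a second measure of the same transcript. Of 5 such rows, 3 had enough counts to be tested in TAA vs control. With TMM scaling mmu-miR-15b-3p was higher in TAA, mmu-miR-16-1-3p was lower, and mmu-miR-195a-3p did not pass the test. On library totals mmu-miR-15b-3p and mmu-miR-195a-3p were called higher, where 71.9% of all miRNAs tested were. In recovery vs TAA 4 were tested, and mmu-miR-15b-3p was lower with TMM scaling. On library totals all 4 were called lower, where 60.0% of all miRNAs tested were, but mmu-miR-16-2-3p passed the filter only through the TAA samples. In recovery vs control 0 of 3 were called on either scaling. The 3p arm of Mir497 and mmu-miR-195b were not among the rows.

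On chromosome 3 both arms of Mir15b were highest in TAA. mmu-miR-15b-3p measured 6.32, 7.92 and 7.99 CPM in control, 16.5, 15.9 and 12.1 CPM in TAA and 5.13, 5.14 and 8.61 CPM in recovery. All TAA samples lay above the others, and its log2 fold change was 0.92 (SE 0.21, FDR = 0.00671 by edgeR) in TAA vs control and -1.26 (SE 0.28, FDR = 0.00935) in recovery vs TAA. The ratio of mmu-miR-15b-5p to mmu-miR-15b-3p overlapped between all groups and ranged from 2.19 to 4.02.

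On chromosome 14 mmu-miR-16-1-3p, which comes from the Dleu2 locus alone, was lowest in TAA in CPM, as was mmu-miR-15a-5p. It measured 78.2, 86.0 and 62.8 CPM in control, 51.1, 38.7 and 37.9 CPM in TAA and 53.8, 62.3 and 49.1 CPM in recovery. TAA lay below control with no overlap, and the log2 fold change was -0.92 (SE 0.18, FDR = 0.00347 by edgeR), but on library totals it was 0.20 (FDR = 0.313). The other 3p arm of this locus, mmu-miR-15a-3p, had 4 to 7 counts in each sample, which is too few to follow it.

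The 3p arms of the 2 miR-16 hairpins can be set against each other within a library, with low counts on the chromosome 3 side. mmu-miR-16-2-3p had 4, 0 and 1 counts in control, 17, 11 and 9 in TAA and 4, 4 and 0 in recovery, while mmu-miR-16-1-3p had 472 to 829 counts in every sample. Summed over the 3 samples of a group, mmu-miR-16-2-3p was 0.259% of the counts of both arms in control (95% Wilson interval 0.111% to 0.604%), 1.85% in TAA (1.34% to 2.53%) and 0.464% in recovery (0.235% to 0.913%). These intervals cover counting error only, and the shares describe the 3p arms and do not measure how mmu-miR-16-5p divides over its loci.

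On chromosome 11 the ratio of the arms of Mir195a was highest in the TAA livers. The hairpin is shown because its arms are both abundant, with the 5p and 3p arms in capitals.
Mir195a hairpin: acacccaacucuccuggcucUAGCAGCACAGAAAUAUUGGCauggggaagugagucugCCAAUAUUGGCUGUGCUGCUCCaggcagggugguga

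mmu-miR-195a-5p was counted 1.20, 1.37 and 1.34 times for each mmu-miR-195a-3p in control, 1.67, 2.04 and 2.21 times in TAA and 1.50, 1.54 and 1.31 times in recovery. All TAA samples lay above all others, 1.51-fold above control and 1.36-fold above recovery (exact permutation p = 0.1 for both, adjusted p = 0.208), and recovery overlapped with control. mmu-miR-195a-3p itself was at 25.2, 23.0 and 27.6 CPM in control and at 47.5, 23.2 and 25.6 CPM in TAA. TAA replicate 1 stood apart and the others lay within the control range, with a log2 fold change of 0.24 (95% interval -0.37 to 0.86, FDR = 0.449 by edgeR). In deposited TPM mmu-miR-195a-3p was at 19.9, 17.0 and 20.8 in control and at 68.0, 37.9 and 41.6 in TAA, with no overlap. Its log2 fold change on library totals was 1.35 (FDR = 0.00221 by edgeR), where the median over all miRNAs tested was 1.23.

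mmu-miR-497b is not an arm of a member's hairpin. It is annotated on the strand opposite Mir497, and 17 of its bases lie opposite the 3p arm of Mir497. Its sequence is given because its count is uncertain for this reason, as the handling of strand is not given in the sources used here. Some rows of the study had the same values as another row. In TAA vs control the log2 fold change was 0.648 for both mmu-miR-142a-3p and mmu-miR-142b, and -0.294 for both mmu-miR-338-3p and mmu-miR-3065-5p. Whether reads of opposite strands were counted together was not tested. Whether reads counted for mmu-miR-497b came from the 3p arm of Mir497, which had no row of its own, was not tested either.
mmu-miR-497b: caccacagugugguuuggacgugg

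It had 1, 1 and 3 counts in control, 21, 20 and 14 in TAA and 0, 2 and 3 in recovery. The TAA samples were the highest by a wide margin, with summed counts of 55 against 5 in control. Over the TMM-scaled libraries this is a ratio of 6.08 (exact 95% interval 2.45 to 19.5, counting error only), and edgeR gave an FDR of 0.00648. The row passed the filter only through the TAA samples, so this FDR is not independent support for the rise. In recovery vs control the row did not pass the filter and was not tested. In recovery vs TAA the ratio was 0.134 (0.0419 to 0.332).

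Summed by locus, as a description, the rows of the Mir15a arms and mmu-miR-16-1-3p gave 99.8 ± 11.0 CPM in control, 56.7 ± 8.48 in TAA and 76.0 ± 9.19 in recovery (SD, n = 3). The rows of Mir15b and mmu-miR-16-2-3p gave 29.96 ± 2.0, 55.9 ± 10.2 and 26.2 ± 4.83 CPM. The rows of Mir497 and Mir195a gave 81.0 ± 6.81, 143.9 ± 37.8 and 99.6 ± 3.51 CPM. The loci on chromosomes 3 and 11 thus had their highest level in TAA and the locus on chromosome 14 its lowest, while in deposited TPM the chromosome 14 rows were at 76.0 ± 9.01, 88.05 ± 6.503 and 64.1 ± 10.1.

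Of 5 further mouse miRNAs in RefSeq with the same seed, 1 was among the rows, mmu-miR-322-5p, the mouse counterpart of human miR-424, from a cluster on the X chromosome. RefSeq mature sequences were matched by name for 935 of the 1140 rows. Its sequence leaves the family pattern right after the seed.
mmu-miR-322-5p: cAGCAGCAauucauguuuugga

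mmu-miR-322-5p measured 15.6, 14.9 and 17.4 CPM in control, 22.4, 32.0 and 23.0 CPM in TAA and 15.7, 23.9 and 15.8 CPM in recovery. TAA lay above control with no overlap, and recovery replicate 2 overlapped with TAA. The log2 fold change was 0.61 (SE 0.21, FDR = 0.0406 by edgeR) in TAA vs control and -0.51 (SE 0.27, FDR = 0.172) in recovery vs TAA. Like the members of chromosomes 3 and 11, it was higher in TAA on either scaling, at 1.74 on the log2 scale with library totals.

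The miRNAs with the profile most like each member were found among 218 rows with at least 10 CPM on average, by the root mean square difference of centred log2(CPM + 1) over the 9 samples. mmu-miR-497a-5p and mmu-miR-195a-5p were closer to each other (0.142) than either was to any row outside the family, the nearest being mmu-let-7i-5p (0.162) for mmu-miR-497a-5p and mmu-miR-222-3p (0.155) for mmu-miR-195a-5p. mmu-miR-15a-5p was nearest to mmu-let-7a-5p (0.103), mmu-miR-30b-5p (0.133) and mmu-miR-107-3p (0.135), and its difference from mmu-miR-16-5p was 0.209. mmu-miR-16-5p was nearest to mmu-miR-152-3p (0.120), mmu-miR-152-5p (0.135) and mmu-miR-140-3p (0.135).

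mmu-miR-15b-5p was nearest to mmu-miR-674-3p (0.191), mmu-miR-652-3p (0.199) and mmu-miR-106b-3p (0.211). The last of these comes from the miR-106b cluster, which is known for its place in an intron of the replication gene Mcm7, and its other arm, mmu-miR-106b-5p (0.186), was the third nearest to mmu-miR-497a-5p after mmu-miR-181b-5p (0.180). The nearest rows of mmu-miR-195a-5p were completed by mmu-let-7i-5p (0.174) and mmu-miR-99b-5p (0.176). mmu-miR-15a-5p and mmu-miR-15b-5p, which share 18 of 22 bases, differed by 0.755 and were thus among the least alike pairs of the family. All of these samples share their scaling factors, and the differences are a description.

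Marker miRNAs of liver cell types moved between the same groups, and their part in the results above was not tested. The hepatocyte marker mmu-miR-122-5p (1 of 1 lower in TAA vs control) ranged over 261600 to 272000 CPM in control, 70010 to 74220 in TAA and 191700 to 315000 in recovery. The summed biliary markers (5 of 5 higher, the miR-200 family) ranged over 582 to 764, 3331 to 5534 and 1240 to 1415 CPM, the leukocyte markers (3 of 4 higher) over 187 to 208, 262 to 310 and 141 to 217 CPM, and the stellate and mesenchymal markers (3 of 5 higher) over 25480 to 31110, 18030 to 39500 and 21870 to 35800 CPM. The endothelial markers (2 of 2 lower) ranged over 8477 to 8951, 5699 to 6894 and 8347 to 9122 CPM. The red cell markers (2 of 3 lower in TAA vs control and 2 of 3 lower in recovery vs control) ranged over 789 to 1339, 206 to 461 and 329 to 622 CPM, and mmu-miR-16-5p, which is also abundant in red cells, was lowest in CPM in TAA as well. No marker was at 0 in any sample. The marker levels and calls are on TMM scaling, and those on library totals are not given here. The direction of mmu-miR-16-5p in TAA vs control turned between these scales, so a lower call of a marker may depend on the scaling.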

How the data were processed

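Small RNA was sequenced from 9 mouse livers, 3 per group, assigned by the sample labels. The authors extracted RNA with TRIzol, mapped reads to mm10 and miRBase with Bowtie (version 1.3.0 in the submitters' processing notes), and deposited for each mature miRNA a read count, not normalized, and a TPM value. The deposited TPM equalled the count per 1000000 counts of its column, with no term for length, so it shifts when abundant miRNAs change. How reads matching several miRNAs were counted is not given in the sources used here.

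Counts of each pair of groups were tested over the whole table with edgeR 4.0.16 (R 4.3.3): filterByExpr with a minimum count of 10, TMM factors, quasi-likelihood F test without covariates, and Benjamini-Hochberg adjustment (FDR below 0.05 was called). The standard error was the log2 fold change over the square root of F. The CPM values used TMM factors over the 9 samples, which were 0.738 to 0.792 in control, 1.43 to 1.63 in TAA and 0.766 to 0.887 in recovery. Ratios were compared by exact two-sided permutation tests, adjusted over 27 tests.

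Alternatives were size factors of DESeq2 (1.42.0), its test, library totals, limma (3.58.1) on log2(TPM + 1) of the deposited TPM, other filters, a fit of all 9 samples, removal of the miR-122 rows, the replicate number as a block and removal of each replicate. The fitting step was tested on simulated counts with changes drawn evenly in both directions. That test does not bear on the choice of scaling. Shares called over all miRNAs tested were computed for the main fit, library totals and limma only. Named miRNAs were the members, the other arms of their hairpins, rows with the same seed and the 3 nearest profiles of each member. Members, lists and alternatives were chosen with earlier results of these data known. Counts of replicates differed by more than sampling noise in every group.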

Additional observations from a re-analysis of the deposited data

How the results depend on the processing

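With library totals in edgeR, and with limma on log2(TPM + 1), 3 members were DEMs in place of 1 in both TAA vs control and recovery vs TAA, and 1 member (mmu-miR-497a-5p) was called in place of 0 in recovery vs control. On these scales 2 members changed direction. In TAA vs control the log2 fold change was 0.27 with library totals and 0.27 with limma for mmu-miR-15a-5p, and 0.56 by each for mmu-miR-16-5p. The recovery vs TAA values were -0.33 with library totals and -0.32 with limma for mmu-miR-15a-5p, and -0.68 by each for mmu-miR-16-5p. By construction these scales keep the shift of the library total, and the DEMs over all miRNAs tested were then 58.3% with library totals and 50.7% with limma for TAA vs control. The recovery vs TAA shares were 47.0% and 36.1%. Leaving out each replicate in turn gave 0 to 1 member DEMs in TAA vs control, 0 to 3 members called and 0 to 1 member DEMs in recovery vs TAA. For these fits the shares over all miRNAs tested are not given. Without the miR-122 rows in the total, the share of the family was 0.0885% in control, 0.119% in TAA and 0.0840% in recovery.

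With the replicate block 5 members were called between TAA and control, 2 between recovery and TAA and 0 between recovery and control. The shares called over all miRNAs tested are not given for the replicate block, DESeq2 or the fit of all 9 samples. The counts of members under these settings therefore cannot be set against all miRNAs. mmu-miR-195a-5p was not called with the replicate block in recovery vs TAA (FDR = 0.0903 by edgeR), nor with the size factors of DESeq2 (FDR = 0.0666), and the cause was not tested. The replicate numbers did not mark shared animals, and correlations of same-numbered deviations ran from -0.23 to 0.21. DESeq2 (FDR = 0.0147) and edgeR's fit of all 9 samples (FDR = 0.0260) called mmu-miR-15a-5p too in recovery vs TAA, 4 members each. Depth limits mmu-miR-16-2-3p, mmu-miR-15a-3p and mmu-miR-497b, with at most 21 counts in any sample.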
